A study of Rattus norvegicus with 9 samples.

Results

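The compound 3,3′-iminodipropionitrile (IDPN) damages hair cells (HCs) of the vestibular organs. Male Long-Evans rats took it at 20 mM in their drinking water during 7 weeks (the IDPN-7wk group), beside controls on plain water. The 3 IDPN-7wk libraries were compared with the 3 control libraries of the same experiment, chosen by the group name at the end of each title, so 6 of its 9 samples carry the comparison. The other 3, from rats given IDPN for 3 weeks (IDPN-3wk), helped to estimate the spread and served for a direct test between the exposures. Each library held RNA from the 6 cristae and 2 utricles of 1 animal, made with SMARTseq2, a full-length protocol for small RNA inputs with PCR amplification. The control group held rats euthanized at each time point, and which control belonged to which was not stated. The age of the rats was not given for this experiment, and all libraries carried 1 batch label.

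HCs of the cristae and utricles turn head movement into electrical signals through a bundle of stereocilia, and pass the signals to vestibular nerve endings. Type I HCs are enclosed by a calyx-shaped nerve ending and type II HCs are met by small boutons, while supporting cells surround both types, secrete the matrix above them and seal the epithelium. Interferons are secreted signals of antiviral defence that act through JAK kinases and STAT factors on a large family of target genes, including those that present antigens.

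The unit of level is CPM, the counts of a gene scaled by TMM normalization so that libraries can be compared. Totals were 38023198, 32251682 and 38044824 counts in Control replicates 1 to 3 and 46007687, 46018385 and 37275081 in IDPN-7wk replicates 1 to 3, with replicate numbers assigned here. Control replicate 3 stood apart, with 15464 genes detected at equal depth against 17017 and 17116 in the other controls and 17166, 17259 and 17312 in the IDPN-7wk rats. Some results are therefore also given without it. In the IDPN-3wk rats 15498, 15387 and 16834 genes were detected, so 2 of the 3 libraries behind every direct test with them stood apart in the same way, and none of the IDPN-7wk libraries did. Titles also carry codes of unstated meaning. The 3 controls share 1 code and IDPN-7wk replicates 2 and 3 another, while IDPN-7wk replicate 1 shares its code with an IDPN-3wk rat. No code is common to controls and IDPN-7wk rats, so code and exposure cannot be told apart in that comparison. A level of 3 counts, taken as the smallest visible, corresponded to 0.0809, 0.0940 and 0.0844 CPM in the controls and 0.0611, 0.0617 and 0.0760 CPM after IDPN. Reads carried no molecular identifiers, so this floor and the intervals of ratios cover counting error only. Replicates were distinct libraries, with a chi-square per gene of at least 18.7 for any pair within either group, the lowest being that of IDPN-7wk replicates 2 and 3, against 75.0 and 51.6 for their pairs with replicate 1.

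**Figure D1:**
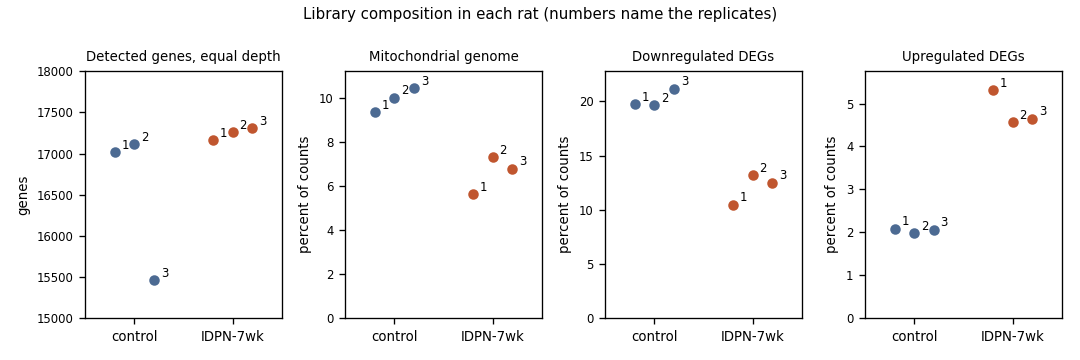
Genes detected at equal depth, percentage of counts from the mitochondrial genome and percentage of counts in downregulated and upregulated DEGs, for each library, by group. Control replicate 3 has fewer detected genes, and the IDPN-7wk libraries have fewer mitochondrial counts.

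After 7 weeks of IDPN more DEGs were downregulated than upregulated, and DEGs of both directions were more frequent among abundant genes. A gene was called a differentially expressed gene (DEG) if its adjusted p in the edgeR quasi-likelihood test was under 0.05 and its fold change above 1.5. Of 15517 genes tested, 796 were DEGs (5.13%), with 485 downregulated (3.13%) and 311 upregulated (2.00%). Counts of DEGs in every list below are to be set beside these shares. The p-values measure the spread between these rats. The 3 IDPN-7wk values lay outside the range of the 3 control values in 5318 genes (34.3%), 2668 higher and 2650 lower, and this held for all 796 DEGs. Remarks below that the groups of a DEG were apart or did not overlap therefore add nothing to its call. For a gene that was not called, such a remark stands beside the 34.3%. Over all genes tested, 7936 were higher and 7581 (48.9%) lower, and at an unadjusted p under 0.05, 1327 were higher and 1665 lower. The median log2 fold change, positive when higher after IDPN, was 0.01 over all genes, with 10th and 90th percentiles of −0.79 and 0.71, and it was −1.11 in downregulated and 1.24 in upregulated DEGs. Protein-coding genes made up 466 of the downregulated and 308 of the upregulated DEGs. A change of more than 8-fold was seen in 30 downregulated and 31 upregulated DEGs.

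Among the 3879 genes with the highest levels, 231 were downregulated and 125 upregulated, and among the 3880 with the lowest levels, 18 were downregulated and 22 upregulated. The downregulated DEGs held 19.8, 19.7 and 21.2% of all counts in the controls and 10.5, 13.2 and 12.5% after IDPN. The upregulated DEGs rose from 2.09, 1.99 and 2.06% to 5.31, 4.57 and 4.65%. Since DEGs were selected on these libraries, the separation of the groups in both shares follows from that choice. IDPN-7wk replicate 1 was the most changed rat in both. Leaving out 1 of the 6 libraries gave 600 DEGs without Control replicate 3 (345 downregulated, 255 upregulated), 506 without Control replicate 1, 508 without Control replicate 2, 557 without IDPN-7wk replicate 2, 508 without IDPN-7wk replicate 3 and 432 without IDPN-7wk replicate 1. Of these, 419 to 540 were among the 796. Other fits gave more calls, with 1317 DEGs by DESeq2, 1249 in a fit of only the 6 libraries and 1563 without Control replicate 3 and IDPN-3wk replicates 1 and 2. No DEG changed direction in any of these fits.

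**Figure D2:**
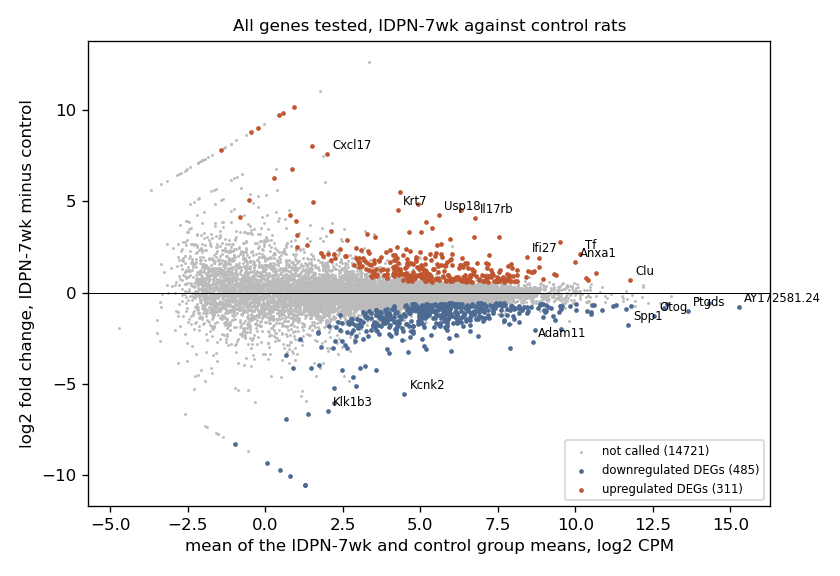
Log2 fold change of IDPN-7wk against control by mean log2 CPM, with 1 point per gene tested and DEGs coloured by direction. Downregulated DEGs lie further toward high levels, and streaks at low levels come from genes with 0 counts in a group, whose values are fitted.

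All 10 transcripts marking type I HCs that were tested were downregulated. Most members are genes that the paper names as lower in all its comparisons, this one among them, so the count was largely fixed by their choice. They had a median log2 fold change of −1.80 against 0.01 over all genes, and their summed level was 6958, 6878 and 7306 CPM in the control rats and 1729, 2027 and 1931 CPM after IDPN. In bulk RNA, fewer HCs and less RNA per HC cannot be told apart, here and for every cell type below. All 10 were still called without Control replicate 3, and 9 to 10 when any 1 library was left out. AC132671.2 (ENSRNOG00000055680), which the paper calls Vsig10l2, measured 426, 475 and 367 CPM in the controls and 52.3, 51.1 and 48.8 CPM after IDPN (log2 fold change −3.06, adjusted p 1.9e-06). The metalloprotease-like neuronal protein Adam11 measured 634, 818 and 601 CPM against 83.6, 113 and 113 CPM. Spp1, which encodes the secreted glycoprotein osteopontin, measured 5154, 4805 and 5574 CPM against 1338, 1643 and 1505 CPM (log2 fold change −1.79). The lowest control rat lay more than 2-fold above the highest IDPN-7wk rat in all 3 genes.

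The potassium channel gene Kcna10 measured 300.5, 293 and 335 CPM in the controls and 107, 96.8 and 107 CPM after IDPN (log2 fold change −1.58, adjusted p 3.3e-05), again without overlap. Ocm2, a gene of the oncomodulin family of calcium-binding proteins, fell by 1.22 on the log2 scale. Spp1 was also lower than after 3 weeks (3236, 3105 and 2626 CPM in the IDPN-3wk rats, direct log2 difference −1.00, adjusted p 0.00326), and it was the only 1 of the 10 called in the direct test. Ocm itself is absent from the deposited table.

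Type II HC markers were split. Of 5 tested, Calb2 and Nrxn3 were downregulated, and the list median was −0.64. The presynaptic adhesion gene Nrxn3 measured 67.0, 74.4 and 51.4 CPM in the controls and 5.72, 8.45 and 8.84 CPM after IDPN (log2 fold change −3.07, adjusted p 0.000298). Calb2, encoding the calcium buffer calretinin, measured 19.0, 19.8 and 18.4 CPM against 10.2, 3.93 and 7.37 CPM (log2 fold change −1.42). Anxa4, a membrane-binding annexin, measured 355, 324 and 337 CPM against 424, 346 and 359.8 CPM, with overlapping groups. The call of Calb2 ended without any 1 control replicate or IDPN-7wk replicate 3 (adjusted p up to 0.0917), so only Nrxn3 remained in those fits.

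Hair bundle genes were called in part, among them motors, membrane proteins and channel subunits. Of 6 mechanotransduction channel genes all were lower, and Tmc1, Lhfpl5 and Cib3 were downregulated, against 3.13% of all genes (list median −0.61). The pore-forming subunit Tmc1 measured 36.6, 38.9 and 48.5 CPM in the controls and 18.3, 20.1 and 22.7 CPM after IDPN (log2 fold change −1.02, adjusted p 0.00517). Lhfpl5, a partner of the pore, measured 86.5, 83.1 and 98.6 CPM against 55.3, 51.6 and 60.0 CPM. Cib3, a calcium-binding partner of the channel, measured 98.7, 49.4 and 161 CPM against 24.4, 20.9 and 10.5 CPM. None of these 3 overlapped between groups, whereas the second pore gene Tmc2 did, at 18.6, 20.4 and 8.05 CPM against 10.9, 9.70 and 11.9 CPM. Calls ended for Lhfpl5 without IDPN-7wk replicate 1 or 2 (adjusted p up to 0.0565) and Cib3 without Control replicate 1 or 3 or any 1 IDPN-7wk replicate (adjusted p up to 0.0908). The count of 3 thus became 1 without IDPN-7wk replicate 1 or 2, and 2 without Control replicate 3.

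Of 9 tip link and Usher protein genes, 8 were lower and Cdh23 and Adgrv1 were downregulated, where 3.13% of all genes were (median −0.55). DESeq2 called 3 as downregulated and the fit of only the 6 libraries 4. The ankle link receptor Adgrv1 measured 56.0, 56.1 and 47.3 CPM in the controls and 22.7, 27.0 and 23.5 CPM after IDPN (log2 fold change −1.12), without overlap. Pcdh15, the lower part of the tip link, measured 5.45, 9.21 and 11.4 CPM against 1.47, 0.905 and 1.49 CPM. Its groups did not overlap either, as in 34.3% of all genes, and the test did not call it (adjusted p 0.161). Ush1c, encoding the scaffold harmonin, was lower by less than the fold change asked for (log2 fold change −0.55, adjusted p 0.0245). Both calls depended on single libraries, being lost for Adgrv1 without IDPN-7wk replicate 1 or 3 (adjusted p up to 0.0605) and Cdh23 without Control replicate 2 or 3 or any 1 IDPN-7wk replicate (adjusted p up to 0.145). The count of 2 became 0 without IDPN-7wk replicate 1 or 3 and 1 without Control replicate 2 or 3.

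Among 5 bundle motor genes all were lower, and Myo15a and Myo3b were downregulated in every fit with a library left out (median −0.48). Myo15a, a myosin that delivers proteins to stereocilia tips, measured 87.9, 116 and 98.9 CPM in the controls and 26.3, 37.0 and 33.1 CPM after IDPN (log2 fold change −1.65, adjusted p 0.000803). Myo3b, another tip myosin, measured 51.1, 43.0 and 51.5 CPM against 20.3, 15.0 and 20.1 CPM. In contrast, the general HC myosin Myo7a measured 166, 193 and 174 CPM against 159.7, 134 and 132 CPM, without overlap but with a log2 fold change of only −0.33 that was not called.

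Of 17 genes for the actin core and membrane of stereocilia, 6 were downregulated, against 3.13% of all genes, and 13 were lower (median −0.40). The calcium pump Atp2b2 measured 130.0, 150.1 and 113 CPM in the controls and 46.2, 41.3 and 47.3 CPM after IDPN (log2 fold change −1.54, adjusted p 0.000182). Xirp2, an actin-binding protein, measured 180.5, 160.2 and 136 CPM against 40.7, 26.2 and 44.9 CPM. Ptprq, a shaft phosphatase, measured 926, 1159 and 789 CPM against 292, 342 and 390.1 CPM. All 3 were apart by more than the spread within either group. Espn, an actin bundler, and Loxhd1, a membrane-associated protein of stereocilia, fell by 1.47 and 1.31 on the log2 scale. All 6 were called without Control replicate 3, and that of the espin-like actin regulator Espnl ended without Control replicate 1 or 2 or any 1 IDPN-7wk replicate (adjusted p up to 0.0560).

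**Figure D3:**
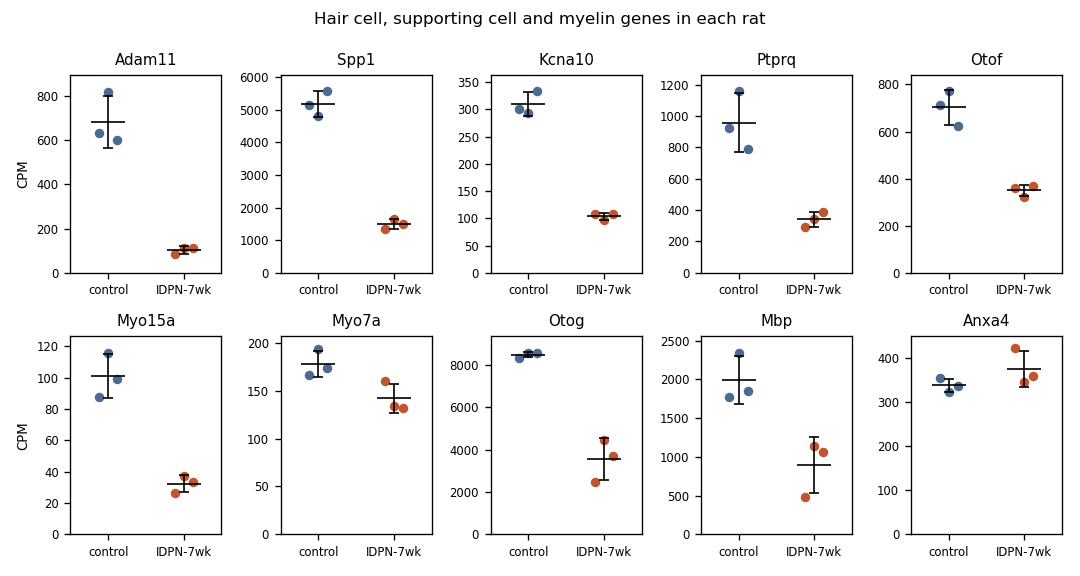
Levels in CPM of 10 genes of HCs, supporting cells and myelin in control and IDPN-7wk rats; points are rats and bars are means ± SD. Type I HC and bundle genes separate the groups, while Myo7a and Anxa4 change little.

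At the HC ribbon synapse, 7 of 19 genes were downregulated and 1 was upregulated, against 3.13% and 2.00% of all genes. Lower levels were seen in 16, with a median of −0.67. Without Control replicate 3, 6 were downregulated and none upregulated. Otof, the calcium sensor of vesicle fusion in HCs, measured 715, 772 and 622 CPM in the controls and 362, 323 and 367 CPM after IDPN (log2 fold change −1.00, adjusted p 0.00137). Slc17a8, which loads glutamate into vesicles, measured 69.5, 63.4 and 68.4 CPM against 14.2, 9.70 and 16.8 CPM (log2 fold change −2.31). The membrane fusion gene Snap25 measured 32.8, 38.6 and 44.3 CPM against 10.1, 11.3 and 10.5 CPM. Groups were well apart in each, with Slc17a8 and Snap25 reduced further than Otof. The calcium channel gene Cacna1d and its modulator Cabp2 fell by 1.00 and 0.67 on the log2 scale. The upregulated gene was Sncg, a synuclein with unclear function, at 18.7, 25.2 and 17.1 CPM against 31.1, 35.1 and 37.2 CPM, named after its value was seen, and its call ended without Control replicate 1 or 3 or any 1 IDPN-7wk replicate (adjusted p up to 0.140).

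Of 16 transcription factors of HCs tested, Pou4f3 and Lhx3 were downregulated, against 3.13% of all genes. DESeq2 called 4, and the median was −0.25. Lhx3 measured 26.0, 25.3 and 35.4 CPM in the controls and 10.3, 8.04 and 11.1 CPM after IDPN (log2 fold change −1.56, adjusted p 0.00441). The HC survival factor Pou4f3 measured 135, 152 and 168 CPM against 114, 84.4 and 96.9 CPM (log2 fold change −0.62). Atoh1, which starts HC formation, was low in all rats, at 9.09, 6.70 and 8.30 CPM against 3.75, 4.996 and 3.87 CPM, and was not called (adjusted p 0.104). Groups did not overlap in any of the 3, as in 34.3% of all genes. Pou4f3, with the smaller drop, lost its call without Control replicate 2 or 3 or IDPN-7wk replicate 2 or 3 (adjusted p up to 0.0863).

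Genes for the axoneme, the microtubule core of cilia such as the kinocilium of HCs, included 10 downregulated of 42 tested. None was upregulated and 37 were lower, with a median of −0.59, while 3.13% of all genes were downregulated. Hydin, a protein of the central pair of microtubules, measured 74.4, 80.9 and 72.8 CPM in the controls and 23.2, 23.3 and 26.3 CPM after IDPN (log2 fold change −1.65, adjusted p 0.000217). Vwa3a measured 56.1, 68.9 and 44.1 CPM against 9.84, 8.14 and 11.4 CPM (log2 fold change −2.53). Cfap77, a microtubule inner protein, measured 69.4, 72.4 and 64.5 CPM against 19.9, 19.8 and 24.2 CPM. The outer arm dynein Dnah9 measured 47.1, 59.3 and 52.4 CPM against 21.3, 18.1 and 25.0 CPM. These 4 genes held similar levels in all 3 IDPN-7wk rats. Leaving out libraries gave 8 downregulated genes without Control replicate 3 and 5 without Control replicate 2 or IDPN-7wk replicate 1 or 2 and 6 without IDPN-7wk replicate 3, and the call of Cfap126, a cilia and flagella associated gene at log2 fold change −0.71, ended without Control replicate 1 or 2 or IDPN-7wk replicate 1 or 2 (adjusted p up to 0.0803).

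On the nerve side of the synapse, 1 gene was called in each of 2 lists, where 3.13% of all genes were downregulated and 2.00% upregulated. Of 8 genes of the calyceal junction, which joins the type I HC and its calyx, Cntn1 was downregulated and 6 were lower (median −0.33). The adhesion gene Cntn1 measured 473, 459 and 506 CPM in the controls and 207, 231 and 228 CPM after IDPN (log2 fold change −1.11, adjusted p 0.000457), in every fit with a library left out. Its partner at nerve junctions, Cntnap1, had a low level, at 2.02, 1.22 and 0.816 CPM against 3.14, 2.28 and 2.35 CPM, and not called. Of 9 genes of the neuronal cytoskeleton, 1 was upregulated and none downregulated (median −0.20). The neurofilament genes Nefl and Nefm overlapped between the groups, at 39.5, 42.4 and 32.7 CPM against 36.2, 29.4 and 33.9 CPM for Nefl. Uchl1, a ubiquitin hydrolase of neurons, rose from 12.6, 14.9 and 10.9 CPM to 44.4, 25.0 and 29.3 CPM (log2 fold change 1.36).

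Myelin genes of Schwann cells were all lower, with a wide spread among the IDPN-7wk rats. Of 15 tested, Mbp, Pmp22, Ncmap and Ugt8 were downregulated, while DESeq2 called 9, and the median was −0.84. The list's summed level was 14199, 16543 and 15146 CPM in the control rats and 6359, 10262 and 10527 CPM after IDPN, with IDPN-7wk replicate 1 lowest. Ugt8, an enzyme of myelin lipid synthesis, measured 153, 151 and 134 CPM in the controls and 58.4, 70.0 and 65.0 CPM after IDPN (log2 fold change −1.18). Mbp, a myelin sheath protein, fell by 1.15 on the log2 scale, without overlap. Calls ended for Ugt8 without IDPN-7wk replicate 1 (adjusted p 0.0563), Ncmap without Control replicate 1 or 2 or IDPN-7wk replicate 3 (adjusted p up to 0.0813), Mbp without any 1 control replicate or IDPN-7wk replicate 3 (adjusted p up to 0.121) and Pmp22 without any 1 control replicate or IDPN-7wk replicate 2 or 3 (adjusted p up to 0.135). The count of 4 became 1 without Control replicate 1 or 2 or IDPN-7wk replicate 3 and 2 without Control replicate 3.

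Of 23 supporting cell genes tested, 19 were lower and 5 were downregulated, against 3.13% of all genes (median −0.47). The 5 were Otog, Otogl, Tectb, Gjb6 and Kremen1. The list summed to 17509.8, 17101 and 17704 CPM in the control rats and 9275, 11019 and 10384 CPM after IDPN. Otog, which encodes the matrix protein otogelin, measured 8340.0, 8545 and 8535 CPM in the controls and 2477, 4439 and 3683 CPM after IDPN (log2 fold change −1.26, adjusted p 0.00678). Its relative Otogl measured 498, 462 and 475 CPM against 211, 249 and 256 CPM. Tectb, encoding the matrix protein β-tectorin, measured 373, 395 and 311 CPM against 79.4, 135 and 111 CPM (log2 fold change −1.73). IDPN-7wk replicate 1 was the lowest rat in all 3 genes, and the highest IDPN-7wk rat stayed under the lowest control.

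The gap junction gene Gjb6 measured 1783, 1556 and 2066 CPM in the controls, 1292, 1485 and 1495 CPM after 3 weeks and 783, 962 and 905 CPM after 7 weeks (log2 fold change against control −1.03). It was lower after the longer exposure in the direct test (adjusted p 0.0426). The transcription factor Sox9 measured 411, 461 and 279 CPM against 435, 437 and 478 CPM with overlap. Its family member Sox2 was lower without overlap, at 10.6, 13.5 and 12.4 CPM against 5.95, 6.48 and 8.86 CPM, and not called. Such separation was seen in 34.3% of all genes. All 5 calls held without Control replicate 3. In the direct test the call ended for Gjb6 without Control replicate 1, IDPN-3wk replicate 1 or 2 or any 1 IDPN-7wk replicate (adjusted p up to 0.160).

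Genes for otoconia, the mineral crystals above the utricle, went both ways. Of 9 tested, Oc90 was upregulated, and Otop1 and Sparcl1 were downregulated, against 2.00% and 3.13% of all genes (median −0.26). Oc90, the main protein of otoconia, measured 4.10, 2.29 and 4.81 CPM in the controls and 12.8, 14.6 and 22.1 CPM after IDPN (log2 fold change 2.14). The matrix protein Sparcl1 measured 2407, 2421 and 2501 CPM against 989.7, 1457 and 1384 CPM (log2 fold change −0.94). Otop1, a proton channel, measured 32.9, 36.2 and 20.1 CPM against 5.93, 14.0 and 8.66 CPM. All 3 separated the groups, while the otoconial collagen-like gene Otol1 did not reach a call (adjusted p 0.307). Calls ended for Oc90 without Control replicate 1 or 2 or IDPN-7wk replicate 3 (adjusted p up to 0.0750) and Otop1 without Control replicate 1 or 2 or IDPN-7wk replicate 1 or 3 (adjusted p up to 0.0886).

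Ion transport genes of dark cells, which secrete the potassium-rich endolymph, included 3 downregulated of 11, against 3.13% of all genes. They were Kcnq1, Slc12a2 and Kcnj10. The list median was −0.35, −0.09 without Control replicate 1 and −0.74 without Control replicate 3. The cotransporter Slc12a2 measured 770.0, 695 and 672 CPM in the controls and 193, 379 and 277 CPM after IDPN (log2 fold change −1.33, adjusted p 0.00387). The potassium channel Kcnj10 measured 56.2, 47.3 and 67.0 CPM against 27.9, 29.0 and 29.8 CPM. The potassium channel Kcnq1 measured 97.2, 55.2 and 107 CPM against 27.1, 43.8 and 23.4 CPM. Groups did not overlap in these genes, and Kcne1, the partner of Kcnq1, was not called (adjusted p 0.136). Of 6 melanocyte genes, edgeR and DESeq2 both called 0 while 3 had an unadjusted p under 0.05, and their median was −0.15. Over all genes edgeR called 5.13%. The call ended for Kcnq1 without Control replicate 1 or 3 or IDPN-7wk replicate 1 or 3 (adjusted p up to 0.106).

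Connective tissue and vessels held 2 calls in each of 2 lists, against 5.13% of all genes. Of 11 fibroblast genes, Lum and Otos were downregulated (median −0.20). Otos, a secreted protein of inner ear fibrocytes, measured 616, 495 and 622 CPM in the controls and 248, 345 and 360.4 CPM after IDPN (log2 fold change −0.86). Lum, a matrix proteoglycan, measured 16.7, 17.3 and 28.1 CPM against 6.05, 5.55 and 5.90 CPM. The groups did not overlap in either, whereas the collagen chain Col1a1 overlapped, at 12.3, 28.7 and 19.5 CPM against 18.4, 55.6 and 56.2 CPM. Of 8 endothelial genes, the vessel junction gene Cdh5 was upregulated and the receptor Flt1 downregulated (median 0.17), and neither was called without Control replicate 3. Calls ended for Lum without Control replicate 3 or any 1 IDPN-7wk replicate (adjusted p up to 0.0700), Cdh5 without any 1 of the 6 libraries (adjusted p up to 0.185) and Flt1 without any 1 control replicate or IDPN-7wk replicate 1 or 3 (adjusted p up to 0.0759).

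By edgeR and DESeq2 alike, 0 of 3 pericyte genes and 0 of 4 haemoglobin genes were called, with medians of 0.25 and −0.09. Over all genes edgeR called 5.13%, so 0 was to be expected in lists this short. No gene of either list had an unadjusted p under 0.05. The haemoglobin genes share reads with near-identical copies, so their values are uncertain. The pericyte gene Rgs5 measured 13.8, 19.4 and 14.4 CPM in the controls and 6.36, 13.5 and 12.2 CPM after IDPN, and the groups overlapped in the pericyte marker Pdgfrb.

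The 10 largest decreases in fold are given among DEGs without overlap and with at least 5 CPM in the controls. LOC102551716, a gene without a known role, measured 5.96, 4.07 and 5.49 CPM in the controls and 0.0815, 0.0617 and 0 CPM after IDPN (log2 fold change −6.62, adjusted p 0.00304). Klk1b3, a kallikrein protease, measured 5.53, 5.86 and 12.5 CPM against 0.0407, 0.164 and 0.0506 CPM. The potassium channel Kcnk2 measured 50.1, 45.6 and 36.3 CPM against 0.917, 1.42 and 0.405 CPM (log2 fold change −5.57). All 3 fell to a few percent of the control level or less in every IDPN-7wk rat. Klk1b3 was also lower than after 3 weeks (2.75, 5.32 and 2.28 CPM, direct log2 difference −5.27, adjusted p 0.0103). Its log2 fold change against control was −6.48, and −7.35 without IDPN-7wk replicate 2. The direct log2 difference was −6.14 without the same library. The direct call ended for Klk1b3 without IDPN-7wk replicate 1 or 3 (adjusted p up to 0.0690).

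The proteoglycan Spock1 measured 19.5, 19.9 and 27.7 CPM in the controls and 0.978, 1.25 and 1.29 CPM after IDPN (log2 fold change −4.25, adjusted p 0.000182). The protocadherin Pcdhb19 measured 16.0, 15.4 and 9.23 CPM against 0.570, 0.658 and 0.380 CPM (log2 fold change −4.64), and was lower than after 3 weeks as well (direct log2 difference −2.43, adjusted p 0.0213). The noncoding transcript AABR07060487.1 fell by 4.12 on the log2 scale. Separation was complete in all 3 by the choice of genes without overlap. The same choice took in Cadm2, an adhesion gene at log2 fold change −5.22, and Pcdhb20 at −5.13. It also took in the adhesion gene Mdga2 at −6.05 and the secreted signal Wnt3 at −4.24. Kallikrein and protocadherin genes share reads with close relatives and are uncertain. Calls of these 4 depended on single libraries, being lost for Cadm2 without IDPN-7wk replicate 1 (adjusted p 0.0544), Pcdhb20 without Control replicate 1 or 3 or IDPN-7wk replicate 1 or 3 (adjusted p up to 0.0610), Mdga2 without any 1 control replicate or IDPN-7wk replicate 1 or 3 (adjusted p up to 0.155) and Wnt3 without any 1 control replicate or IDPN-7wk replicate 2 or 3 (adjusted p up to 0.164). Without IDPN-7wk replicate 2 the log2 fold change was −7.95 for Mdga2 and −5.34 for Wnt3, and without IDPN-7wk replicate 1 it was −3.65 for Wnt3. In the direct test the call ended for Pcdhb19 without Control replicate 1 or 2, IDPN-3wk replicate 1 or any 1 IDPN-7wk replicate (adjusted p up to 0.121).

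Interferon targets held more upregulated DEGs than any other list. Of 56 antiviral effector genes, 33 were upregulated and none downregulated, and all 56 were higher, with a median of 1.55 against 0.01 over all genes. Their sum was 969, 1054 and 1155 CPM in the control rats and 3931, 3138 and 3103 CPM after IDPN, a clear separation with Ifi27 as the most abundant gene. Without Control replicate 3, 35 were upregulated, and 24 to 35 were when any 1 library was left out. In the direct test with the IDPN-3wk rats, in which 75 genes of the 15517 were called (0.483%), 21 of the 56 were higher after 7 weeks.

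Usp18, a protease that removes ISG15 and restrains interferon signalling, measured 2.35, 5.67 and 6.42 CPM in the controls and 111, 79.6 and 85.3 CPM after IDPN (log2 fold change 4.26, adjusted p 0.000384). Isg15 itself, a ubiquitin-like modifier, measured 4.13, 2.82 and 6.50 CPM against 53.5, 38.8 and 42.5 CPM (log2 fold change 3.32). Lgals3bp, a secreted galectin-binding protein, measured 32.1, 45.4 and 44.2 CPM against 378, 328 and 288 CPM (log2 fold change 3.03). The lowest IDPN-7wk rat lay more than 5-fold above the highest control in all 3. After 3 weeks the means were 11.3, 5.14 and 48.0 CPM, and all 3 were higher after 7 weeks in the direct test (adjusted p 0.00888, 0.00888 and 0.000696).

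Ifi27, an interferon-induced mitochondrial protein, measured 137, 146 and 148 CPM in the controls, 209, 191 and 166 CPM after 3 weeks and 606, 552 and 512 CPM after 7 weeks (adjusted p 2.4e-05 against control). Oas1a, an enzyme that answers double-stranded RNA, measured 4.10, 8.71 and 7.46 CPM against 95.4, 68.7 and 65.7 CPM (log2 fold change 3.50). Rtp4, a chaperone of receptors with antiviral effects, measured 12.8, 15.3 and 13.8 CPM against 108, 77.7 and 75.9 CPM (log2 fold change 2.65). The 3 IDPN-7wk rats of each gene lay within 2-fold of each other and far above the controls. Ifitm3 and Ifitm1, which block viral entry, rose by 2.08 and 1.86 on the log2 scale, the kinase Eif2ak2 by 1.56 and the guanosine triphosphatase Igtp by 1.21. Ifi27l2b measured 0.458, 1.38 and 0.760 CPM against 65.0, 24.2 and 28.8 CPM, but this gene and Oas1a share reads with near-identical copies and are uncertain. Oas2, a relative of Oas1a, was near 0 in the controls (0.162, 0.376 and 0 CPM) and measured 7.37, 5.53 and 4.05 CPM after IDPN. Its log2 fold change was 4.97, and 6.06 without Control replicate 2, and the call ended without Control replicate 1 or 2 or any 1 IDPN-7wk replicate (adjusted p up to 0.186).

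The promoters of 6 of these genes are shown because they rose together and hold the letters GAAANNGAA, the core of the element that interferon-activated factors bind. The search covered 250 bases before to 50 after the first listed start, on both strands, in RefSeq sequences of build GRCr8, and also counted TTCNNNGAA, a pattern bound by STAT factors. Sequences run 5′ to 3′ on the gene's strand, with matches to GAAANNGAA on either strand in capitals. Positions are chr6:128355062-128355361 (plus strand) for Ifi27, chr12:41330216-41330515 (plus) for Oas1a, chr10:104127799-104128098 (minus) for Lgals3bp, chr1:205541709-205542008 (minus) for Ifitm3, chr6:21940904-21941203 (plus) for Eif2ak2 and chr1:205799974-205800273 (minus) for the interferon regulatory factor gene Irf7. The capitals in Irf7 are a match on the other strand, and those in Oas1a are overlapping matches.
Ifi27: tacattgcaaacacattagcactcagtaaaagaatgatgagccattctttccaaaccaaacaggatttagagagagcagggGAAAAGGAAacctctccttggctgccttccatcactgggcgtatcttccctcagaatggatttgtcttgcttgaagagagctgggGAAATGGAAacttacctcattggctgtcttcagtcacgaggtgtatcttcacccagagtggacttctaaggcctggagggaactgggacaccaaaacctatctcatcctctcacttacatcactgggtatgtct
Oas1a: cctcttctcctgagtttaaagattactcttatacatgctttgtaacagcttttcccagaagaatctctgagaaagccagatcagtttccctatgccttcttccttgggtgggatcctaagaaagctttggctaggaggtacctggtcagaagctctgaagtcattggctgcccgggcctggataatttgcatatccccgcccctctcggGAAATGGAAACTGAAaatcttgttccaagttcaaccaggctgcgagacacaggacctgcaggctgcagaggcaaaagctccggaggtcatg
Lgals3bp: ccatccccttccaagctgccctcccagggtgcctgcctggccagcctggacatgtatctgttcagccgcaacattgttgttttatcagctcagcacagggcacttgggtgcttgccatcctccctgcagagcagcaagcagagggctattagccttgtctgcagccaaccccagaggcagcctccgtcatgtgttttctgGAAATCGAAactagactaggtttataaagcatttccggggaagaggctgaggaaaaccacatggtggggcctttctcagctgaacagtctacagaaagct
Ifitm3: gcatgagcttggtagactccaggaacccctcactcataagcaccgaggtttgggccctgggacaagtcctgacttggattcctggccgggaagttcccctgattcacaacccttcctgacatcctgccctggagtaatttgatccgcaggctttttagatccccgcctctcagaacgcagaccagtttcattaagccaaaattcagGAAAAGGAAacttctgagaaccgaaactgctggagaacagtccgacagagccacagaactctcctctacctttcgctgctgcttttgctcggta
Eif2ak2: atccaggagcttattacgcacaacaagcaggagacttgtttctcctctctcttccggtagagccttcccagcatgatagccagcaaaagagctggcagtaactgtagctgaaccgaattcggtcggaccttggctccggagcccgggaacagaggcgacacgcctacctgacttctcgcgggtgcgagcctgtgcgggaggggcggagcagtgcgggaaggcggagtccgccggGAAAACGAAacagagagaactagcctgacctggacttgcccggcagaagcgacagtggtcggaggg
Irf7: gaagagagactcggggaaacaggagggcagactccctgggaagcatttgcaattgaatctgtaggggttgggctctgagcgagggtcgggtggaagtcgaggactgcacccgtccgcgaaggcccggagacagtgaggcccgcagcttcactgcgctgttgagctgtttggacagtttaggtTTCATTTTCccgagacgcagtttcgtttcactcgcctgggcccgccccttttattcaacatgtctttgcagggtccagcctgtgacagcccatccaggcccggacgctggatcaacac

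Of the 15517 genes tested, 11357 were matched to a promoter, 10909 by symbol and 448 by synonym. GAAANNGAA was present in 9.50% of all 27457 promoters of this length (2608), in 7.12% of the matched genes (809) and in 32 of the 47 matched antiviral genes (68.1%). It was present in 39 of the 212 matched upregulated DEGs (18.4%), antiviral genes among them, and in 24 of the 363 matched downregulated DEGs (6.61%). TTCNNNGAA was present in 8.68% of all promoters (2382), 6.72% of matched genes (763), 22 upregulated DEGs (10.4%), 19 downregulated DEGs (5.23%) and 13 antiviral genes (27.7%). Of the 14 matched signalling genes, 2 held GAAANNGAA and 5 held TTCNNNGAA. For GAAANNGAA the counts were 4 of 25 antigen presentation genes, 1 of 7 type I HC markers and 0 of 6 mechanotransduction genes. The letters G and C made up a median of 51.3% of antiviral promoters and 60.7% of those of all matched genes. In upregulated and downregulated DEGs this median was 58.7% and 60.3%, and its part in the shares was not tested. These shares describe letters in a window, were not tested and show neither binding nor cause, and the matched upregulated DEGs are under 80% of their list.

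Upstream of these targets, some signalling genes were upregulated, while the interferons themselves were almost unread. Of 8 interferon genes listed, 7 were in the table and 0 passed the filter on counts, so neither edgeR nor DESeq2 tested any of them. Ifnb1 and Ifng had 0 counts in all 6 libraries, and the most counts in any were 20 for Ifne, in Control replicate 1. Of 8 sensors of foreign nucleic acid all were higher, and Ddx58, Ifih1 and Dhx58 were upregulated (median 1.37). The RNA sensor Dhx58 measured 13.1, 19.4 and 17.8 CPM in the controls and 91.9, 58.9 and 69.7 CPM after IDPN (log2 fold change 2.13). Ifih1, encoding the RNA sensor MDA5, measured 15.2, 14.7 and 6.78 CPM against 46.3, 30.4 and 35.6 CPM. Ddx58, encoding the RNA sensor RIG-I, measured 8.09, 6.45 and 3.04 CPM against 22.5, 16.1 and 20.6 CPM. Groups did not overlap in any of them. All 3 were called without Control replicate 3. Calls ended for Dhx58 without Control replicate 1 or IDPN-7wk replicate 1 (adjusted p up to 0.0609), Ifih1 without IDPN-7wk replicate 1 (adjusted p 0.0743) and Ddx58 without Control replicate 2 or IDPN-7wk replicate 1 or 3 (adjusted p up to 0.0797). Without IDPN-7wk replicate 1 the log2 fold changes of Dhx58, Ifih1 and Ddx58 were 1.94, 1.43 and 1.65, against 2.13, 1.62 and 1.75 in all libraries. The count of 3 became 0 without IDPN-7wk replicate 1.

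Of 19 receptor and JAK-STAT genes, 18 were higher and 7 were upregulated (median 0.59), 8 without Control replicate 3 and 6 to 8 when any 1 library was left out. Stat2, which carries the signal to the nucleus, measured 63.4, 60.1 and 55.1 CPM in the controls and 173, 135 and 125 CPM after IDPN (log2 fold change 1.28, adjusted p 0.000622). Irf7, a factor that amplifies the response, measured 10.1, 12.0 and 22.1 CPM against 151, 95.5 and 85.3 CPM (log2 fold change 2.91). Irf9, a DNA-binding partner of Stat2, rose by 1.41 on the log2 scale. All 3 separated the groups, with IDPN-7wk replicate 1 highest in each. The receptor subunits Ifnar1 and Ifnar2 were not called, at 81.1, 78.3 and 75.7 CPM against 86.9, 97.0 and 99.6 CPM for Ifnar1. Stat2, Irf7 and Usp18 were higher than after 3 weeks in the direct test, by 1.43, 2.28 and 3.02 on the log2 scale. The direct call ended for Irf7 without Control replicate 1 or 2, IDPN-3wk replicate 2 or any 1 IDPN-7wk replicate (adjusted p up to 0.187).

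**Figure D4:**
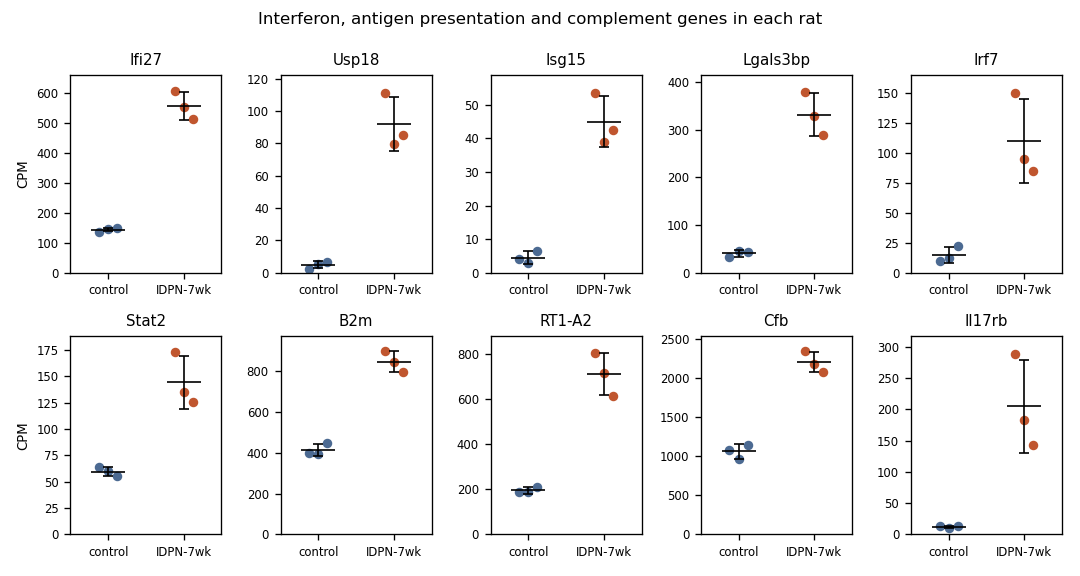
Levels in CPM of 10 upregulated genes of the interferon response, antigen presentation, complement and Il17rb in control and IDPN-7wk rats; points are rats and bars are means ± SD. No control rat reaches an IDPN-7wk rat in any gene, which holds for every DEG.

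Of 29 antigen presentation genes of class I and II, 11 were upregulated and none downregulated (median 1.35), 10 without Control replicate 3 and 9 to 11 when any 1 library was left out. The list summed to 1619, 1576 and 1767 CPM in the control rats and 3865, 3561 and 3521 CPM after IDPN. B2m, the shared light chain of class I molecules, measured 399.7, 395 and 447 CPM in the controls and 898, 846 and 796 CPM after IDPN (log2 fold change 1.03, adjusted p 0.000143). The class I heavy chain RT1-CE10 measured 33.5, 31.7 and 41.2 CPM against 130.5, 144 and 113 CPM, and RT1-A2 and RT1-CE7 rose by 1.87 and 1.36 on the log2 scale. RT1-T24-3, another heavy chain gene, measured 2.86, 2.63 and 0.535 CPM against 79.3, 71.9 and 24.2 CPM (log2 fold change 4.86). No group overlapped in these genes. The RT1 genes share reads with near-identical copies, so values of single members are uncertain. In the direct test 8 of the 29 were higher than after 3 weeks, B2m by 1.10 on the log2 scale from 415, 386 and 387 CPM.

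Peptide loading and immunoproteasome genes had Tap1, Tapbp, Psmb8 and Psmb9 upregulated among 13 (median 0.34). All of these but Tapbp were also counted among the upregulated antiviral effector genes. Tapbp, which loads peptides onto class I, measured 103, 92.8 and 90.1 CPM in the controls and 183, 184 and 166 CPM after IDPN (log2 fold change 0.90, adjusted p 0.00140). The peptide transporter Tap1 measured 20.5, 22.8 and 20.8 CPM against 48.2, 43.4 and 37.8 CPM. The proteasome subunit Psmb8 measured 11.1, 11.5 and 15.1 CPM against 30.9, 29.0 and 25.6 CPM. These 3 were also higher than after 3 weeks in the direct test (adjusted p 0.0170, 0.0445 and 0.0281). The subunit Psmb9 rose by 1.27 on the log2 scale, a call that ended without Control replicate 1 or IDPN-7wk replicate 1 (adjusted p up to 0.0571). Direct calls ended for Tapbp without any 1 IDPN-7wk replicate (adjusted p up to 0.0859), Tap1 without any 1 control replicate, IDPN-3wk replicate 1 or any 1 IDPN-7wk replicate (adjusted p up to 0.214) and Psmb8 without Control replicate 1 or 2, IDPN-3wk replicate 1 or 2 or any 1 IDPN-7wk replicate (adjusted p up to 0.145).

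Upregulated complement genes included abundant ones. Of 20 tested, 18 were higher and 6 were upregulated, against 2.00% of all genes, with a median of 0.80. When any 1 library was left out, 5 to 6 were called. Cfb, a factor of the alternative pathway, measured 1087, 961 and 1142 CPM in the controls, 1125, 984 and 1075 CPM after 3 weeks and 2348, 2189 and 2086 CPM after 7 weeks (log2 fold change against control 1.05, direct log2 difference 1.06, adjusted p 0.000696). Serping1, the inhibitor of the first component, measured 235, 208 and 202 CPM against 533, 447 and 489 CPM. Clu, a chaperone that also restrains complement, measured 2626, 2334 and 2982 CPM against 4779, 4106 and 4032 CPM (log2 fold change 0.70). The groups did not overlap, and Cfb was the only 1 of these 3 called in the direct test of 7 against 3 weeks. The protease C1r rose by 0.86 on the log2 scale, and C1qa, a chain of the recognition subunit, was not called (adjusted p 0.173).

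All 19 markers of macrophages tested were higher, and the number called depended on the method. C1qb, also counted in the complement list, and Cd14 were upregulated, while DESeq2 called 7 and an edgeR fit of only the 6 libraries 14. The median was 1.22. Their sum was 325, 258 and 384 CPM in the control rats and 819, 648 and 599 CPM after IDPN, with Lyz2 most abundant. C1qb, a complement chain made by macrophages, measured 18.8, 8.96 and 13.4 CPM in the controls and 45.0, 48.3 and 40.2 CPM after IDPN (log2 fold change 1.70, adjusted p 0.00958). Aif1, a macrophage calcium-binding protein, measured 5.31, 4.60 and 4.76 CPM against 17.8, 12.4 and 13.2 CPM and was not called (adjusted p 0.0613). The lysosomal marker Cd68 measured 3.88, 3.66 and 4.50 CPM against 12.5, 10.9 and 12.2 CPM, also without a call. Groups were apart in all 3, as in 34.3% of all genes, and 11 of the 19 had an unadjusted p under 0.05. The lipopolysaccharide receptor gene Cd14 lost its call without Control replicate 2 or 3 or any 1 IDPN-7wk replicate (adjusted p up to 0.0858), and the part of macrophages in other results was not tested.

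Lymphocytes and neutrophils left few counts. Of 13 lymphocyte genes 3 were tested, summing to 11.3, 11.2 and 11.4 CPM in the control rats and 28.8, 16.6 and 15.9 CPM after IDPN, with Cd4 most abundant and a median of 0.95. The T cell gene Cd3d had 0 counts in all controls and 4, 0 and 2 counts after IDPN, and the B cell gene Ms4a1 had 0 in all 6 libraries. Of 6 neutrophil genes 3 were tested, with a median of 2.22, and Elane, a neutrophil protease, had 0 counts throughout. By edgeR 0 genes of either list were called, against 5.13% of all genes, with 0 at an unadjusted p under 0.05 and 0 called by DESeq2.

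Among 17 chemokine and cytokine genes, Cxcl16 and Csf1 were upregulated and Cxcl12 was downregulated (median 0.99). Shares over all genes were 2.00% and 3.13%, and DESeq2 called 5 of the 17 upregulated. Csf1, the growth factor of macrophages, measured 9.01, 11.6 and 8.27 CPM in the controls and 26.7, 23.9 and 25.6 CPM after IDPN (log2 fold change 1.40, adjusted p 0.00320). The chemokine Cxcl16 measured 41.3, 35.3 and 25.7 CPM against 97.6, 63.0 and 66.2 CPM (log2 fold change 1.15). Cxcl12, a chemokine of stromal cells, measured 68.2, 85.0 and 109.7 CPM against 27.7, 29.1 and 29.8 CPM (log2 fold change −1.60). Neither direction showed overlap between groups. Il6 had 0 counts in all 6 libraries, and Tnf had 14 counts in IDPN-7wk replicate 3 and 0 in the others.

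Of 7 acute phase and secreted defence genes, Lcn2, Lbp and Cp were upregulated and Spp1, also counted among type I HC markers, was downregulated (median 0.70). Cp, the copper carrier ceruloplasmin, measured 281, 211 and 263 CPM in the controls and 750.0, 541 and 684 CPM after IDPN (log2 fold change 1.39, adjusted p 0.000621). Lbp, which binds bacterial lipopolysaccharide, measured 140.0, 147 and 146 CPM against 288, 296 and 303 CPM, with a mean of 298 CPM after 3 weeks. The iron-binding defence protein Lcn2 measured 1109.8, 875 and 1096 CPM against 1989, 1319 and 1681 CPM, and 847, 726 and 641 CPM after 3 weeks (direct log2 difference 1.17, adjusted p 0.0118). The groups did not overlap against control in any of them. The rise of Lcn2 over control was the weakest, with the call lost without any 1 control replicate or IDPN-7wk replicate 1 or 3 (adjusted p up to 0.120). In the direct test the call ended for Lcn2 without IDPN-3wk replicate 2 or IDPN-7wk replicate 3 (adjusted p up to 0.0555).

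Several large increases lay outside the interferon family. Il17rb, a receptor chain for interleukins 17B and 25, measured 12.7, 10.6 and 13.7 CPM in the controls, 30.7, 24.8 and 29.7 CPM after 3 weeks and 288, 182 and 144 CPM after 7 weeks (log2 fold change against control 4.05, adjusted p 2.9e-05). Ctgf, a matricellular growth factor, measured 223, 140.4 and 194 CPM against 1582, 984 and 1262 CPM (log2 fold change 2.78). Tf, the iron carrier transferrin, measured 408, 416 and 456 CPM against 1411, 2003 and 2108 CPM (log2 fold change 2.11). No IDPN-7wk rat approached the control range. Il17rb and Ctgf were also higher after 7 than after 3 weeks in the direct test, by 2.85 and 1.24 on the log2 scale. Cxcl17, a mucosal chemokine, was close to 0 in the controls (0.0539, 0.0626 and 0 CPM) and measured 7.05, 7.40 and 9.39 CPM after IDPN. Clca4l, a relative of chloride channel regulators, had 2 counts in the controls together and 767 after IDPN, a ratio of 292 (95% counting interval 80.6 to 2417). Its fitted log2 fold change was 7.99, or 10.74 without Control replicate 1, where no control count remained and the value is fitted. The direct call ended for Ctgf without Control replicate 1 or 3, IDPN-3wk replicate 1 or 2 or IDPN-7wk replicate 1 or 3 (adjusted p up to 0.165).

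A list of keratins, annexins and other genes of the cytoskeleton and membrane held 11 upregulated of 22 tested, with Anxa1 the only annexin called and none downregulated (median 0.99). Their sum was 3298, 3119.9 and 3759.6 CPM in the control rats and 5687, 5399.7 and 5299 CPM after IDPN. Krt15, a keratin of basal cells, measured 5.61, 4.82 and 3.43 CPM in the controls and 53.1, 55.4 and 93.6 CPM after IDPN (log2 fold change 3.86, adjusted p 0.000264). Krt19, a keratin of simple epithelia, measured 255, 235 and 267 CPM against 652, 494 and 487 CPM (log2 fold change 1.11). Anxa1, a membrane-binding protein that dampens inflammation, measured 432, 337 and 702 CPM against 1303, 1742 and 1638 CPM (log2 fold change 1.67). The groups were apart in each, with Control replicate 3 the highest control for Anxa1. Krt7 measured 2.16, 1.22 and 1.60 CPM against 71.7, 23.7 and 16.5 CPM (log2 fold change 4.48, and 3.59 without IDPN-7wk replicate 1), and the annexin partner S100a10 rose by 1.05 on the log2 scale. Krt17, named after its value was seen, had 0 counts in all controls and 420 after IDPN, at least 34.6-fold, and its call ended without Control replicate 1 or IDPN-7wk replicate 1 or 2 (adjusted p up to 0.0743). Without Control replicate 3, 9 were upregulated, and the count became 6 without Control replicate 1 and 7 without IDPN-7wk replicate 1 or 2. Genes of surface epithelium, listed after their values were seen and given below, also held 7 upregulated of 13 tested (median 2.51). That count was 3 to 4 when any 1 library was left out, and Krt15 is in both lists.

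Tight junction genes were upregulated in 4 of 22 cases, against 2.00% of all genes, and 21 were higher (median 0.29). The 4 were F11r, Cldn4, Cldn6 and Cldn7. Cldn6, a claudin, measured 10.2, 10.1 and 14.0 CPM in the controls and 62.1, 52.8 and 41.7 CPM after IDPN (log2 fold change 2.19, adjusted p 0.00173). Cldn4, a second claudin, measured 89.8, 81.1 and 104 CPM against 217, 237 and 194 CPM (log2 fold change 1.24). Both were apart, and the strand protein Ocln was higher by too little to be called (log2 fold change 0.55). The scaffold Tjp1 was not called either (adjusted p 0.320). Smaller increases lost their calls for F11r without Control replicate 2 or IDPN-7wk replicate 1 or 2 (log2 fold change 0.50, 0.57 and 0.55) and Cldn7 without IDPN-7wk replicate 1 (adjusted p 0.0553), and the count of 4 became 2 without IDPN-7wk replicate 1.

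**Figure D5:**
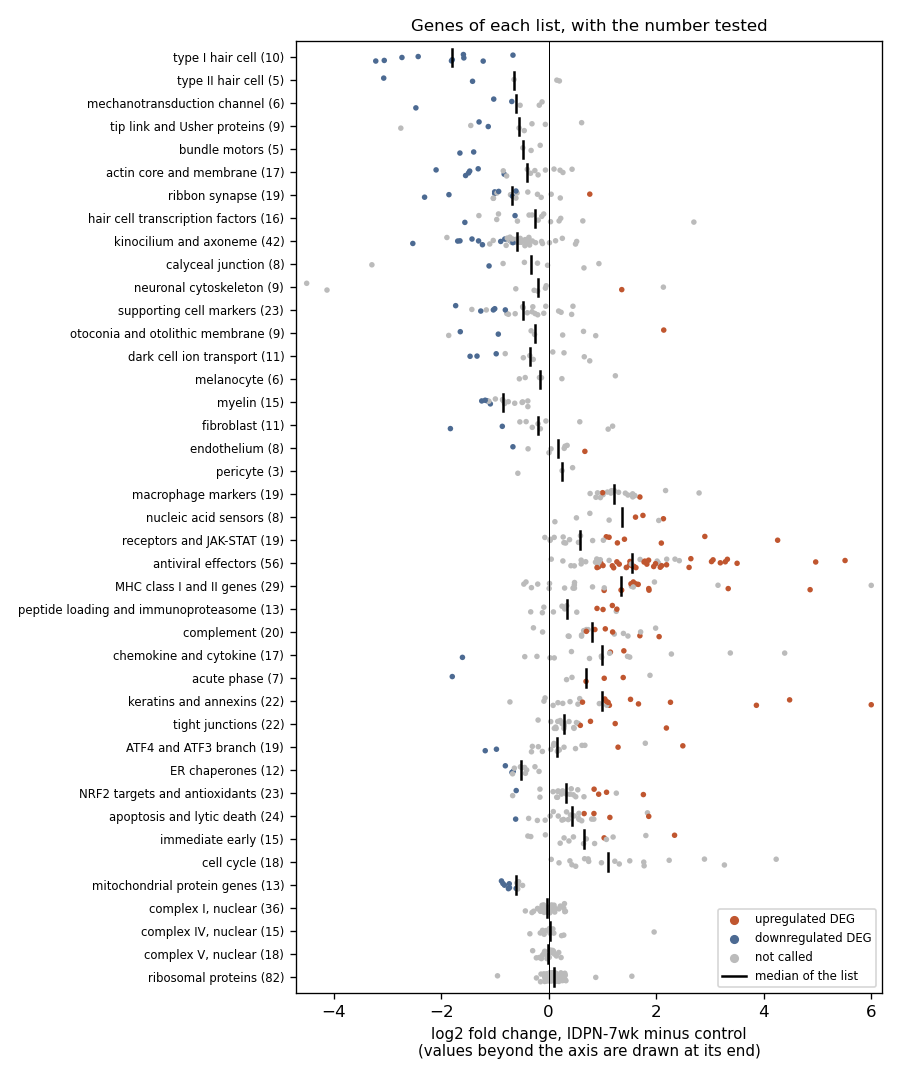
Log2 fold change of IDPN-7wk against control for the genes of each list, with 1 point per gene coloured by call and a black tick at the median; values beyond the axis are drawn at its end. Medians of HC, supporting cell and myelin lists lie left of 0 and those of interferon, antigen presentation, macrophage and keratin lists right of it.

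Of 19 genes of the ATF4 and ATF3 branch of the integrated stress response, Atf3 and Nupr1 were upregulated and Slc7a11 and Vldlr downregulated (median 0.16). Shares over all genes were 2.00% and 3.13%. Nupr1, a stress-induced chromatin protein, measured 6.50, 4.01 and 6.67 CPM in the controls, 14.5, 7.51 and 7.41 CPM after 3 weeks and 31.2, 32.8 and 33.0 CPM after 7 weeks (adjusted p 0.00137 against control, direct log2 difference 1.72, adjusted p 0.0434). Atf3, a stress-induced transcription factor, measured 3.88, 5.95 and 6.58 CPM against 16.4, 11.1 and 12.7 CPM. The central factor Atf4 overlapped, at 158, 145 and 205 CPM against 222, 161 and 158 CPM. The cystine carrier Slc7a11 and the lipoprotein receptor Vldlr fell by 0.97 and 1.18 on the log2 scale. Except for Nupr1, the calls were lost for Atf3 without Control replicate 1 or 2 or any 1 IDPN-7wk replicate (adjusted p up to 0.145), Slc7a11 without Control replicate 1 or 2 or any 1 IDPN-7wk replicate (adjusted p up to 0.164) and Vldlr without Control replicate 1 or 3 or IDPN-7wk replicate 1 or 2 (adjusted p up to 0.0749). The direct call ended for Nupr1 without Control replicate 1 or 3, IDPN-3wk replicate 2 or any 1 IDPN-7wk replicate (adjusted p up to 0.164).

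Of 12 chaperones of the endoplasmic reticulum all were lower, and Hspa5, Hsp90b1 and Sdf2l1 were downregulated, against 3.13% of all genes (median −0.51). All 3 were also downregulated without Control replicate 3. Hspa5, the main chaperone of this compartment, measured 2093, 1624 and 2000.0 CPM in the controls and 1273, 1146 and 1144 CPM after IDPN (log2 fold change −0.68, adjusted p 0.00514). Hsp90b1 measured 1896, 1629 and 1958 CPM against 1109, 1152 and 1213 CPM. Sdf2l1, a cofactor of Hspa5, measured 84.6, 58.4 and 70.8 CPM against 39.9, 42.8 and 39.8 CPM. The changes were modest in size and the groups did not overlap.

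Of 23 NRF2 targets and antioxidants, Nqo1, Txnip, Prdx1 and Mt2A were upregulated and Sod3 was downregulated (median 0.33), against 3 and 0 without Control replicate 3. Over all genes 2.00% were upregulated and 3.13% downregulated, so 1 downregulated gene in 23 says little about the list. Txnip, an inhibitor of thioredoxin, measured 454, 453 and 466 CPM in the controls and 851, 887 and 879 CPM after IDPN (log2 fold change 0.93, adjusted p 5.2e-05), with tight values in both groups. The metal-binding protein Mt2A rose from a mean of 8.02 ± 2.52 (SD) CPM to 27.2 ± 3.59 CPM (log2 fold change 1.76). The factor NRF2 itself, encoded by Nfe2l2, was not called, at 136, 126 and 139.7 CPM against 157, 148 and 141 CPM. Calls ended for the quinone reductase Nqo1 without any 1 of the 6 libraries (adjusted p up to 0.152), Prdx1 without Control replicate 2 (adjusted p 0.0554) and Sod3 without Control replicate 3 or IDPN-7wk replicate 1 or 3 (adjusted p up to 0.0707), of which Prdx1 is a peroxidase and Sod3 an extracellular superoxide dismutase.

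Of 24 genes of apoptosis and lytic death, 20 were higher. Of these 4 were upregulated, Ripk3 and Tnfrsf1a among them, and Casp4 was downregulated (median 0.44), against 5 and 0 without Control replicate 3. Over all genes 2.00% were upregulated and 3.13% downregulated, so 1 downregulated gene in 24 says little about the list. Ripk3, a kinase of necroptosis, measured 3.45, 3.92 and 2.56 CPM in the controls and 14.6, 10.2 and 11.2 CPM after IDPN (log2 fold change 1.86, adjusted p 0.00367). The death receptor Tnfrsf1a measured 49.5, 49.99 and 61.8 CPM against 108, 87.2 and 94.6 CPM (log2 fold change 0.84). Both separated the groups, as 34.3% of all genes did, and Cdkn1a, a cell cycle inhibitor, did so without a call (adjusted p 0.100). The call of Casp4, a caspase named after its value was seen, ended without any 1 of the 6 libraries (adjusted p up to 0.181). The count of 4 became 2 without Control replicate 2 or IDPN-7wk replicate 1 or 3.

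Among 15 immediate early genes, Fos and Junb were upregulated, where 2.00% of all genes were (median 0.65), and DESeq2 called 4. The transcription factor Fos measured 5.34, 7.24 and 3.49 CPM in the controls and 38.9, 19.6 and 22.9 CPM after IDPN (log2 fold change 2.34, adjusted p 0.00373). Its relative Junb measured 14.7, 16.0 and 12.0 CPM against 34.1, 29.5 and 23.6 CPM, also without overlap, and lost its call without Control replicate 1 or 3 or IDPN-7wk replicate 1 or 2 (adjusted p up to 0.0977). Of 7 mitophagy genes, edgeR and DESeq2 called 0 while 4 had an unadjusted p under 0.05 (median 0.15). The fit of only the 6 libraries called 1 as downregulated. Over all genes edgeR called 5.13%, and 2992 of 15517 had an unadjusted p under 0.05. Pink1, the kinase that marks damaged mitochondria, measured 243, 249.7 and 384 CPM in the controls and 77.0, 160.2 and 158 CPM after IDPN and was not called (adjusted p 0.132), and the receptor Bnip3 was not called either (adjusted p 0.0833).

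Cell cycle genes were all higher without a call. Of 18 tested, 0 were called by edgeR or DESeq2 and 0 had an unadjusted p under 0.05, and the median was 1.11, or 0.71 without Control replicate 3. Over all genes edgeR called 2.00% as upregulated, so a count of 0 in 18 says little about this list. The proliferation marker Mki67 measured 4.18, 3.45 and 3.29 CPM in the controls and 6.36, 4.13 and 7.70 CPM after IDPN. Top2a, a topoisomerase of dividing cells, measured 0, 0.313 and 0 CPM against 0.957, 2.86 and 2.10 CPM. Top2a had 0 counts in 2 controls, and the spread of both genes between rats was wide.

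Transcripts of the mitochondrial genome were reduced. Its share of counts was 9.33, 10.0 and 10.4% in the controls and 5.64, 7.30 and 6.78% after IDPN. All 13 protein genes were lower and apart, against 34.3% of all genes that were apart in either direction, and 7 were downregulated against 3.13% (median −0.60), with sums of 48256, 55406 and 50769 CPM in the control rats and 26703, 37155 and 33403 CPM after IDPN. Mt-co3, a subunit of complex IV, measured 3752, 4210.3 and 4417 CPM in the controls, 3900.4, 3663 and 3653 CPM after 3 weeks and 1938, 2436 and 2365 CPM after 7 weeks (log2 fold change against control −0.88, direct log2 difference −0.73, adjusted p 0.0118). Mt-co2, of the same complex, measured 2876, 3138 and 2921 CPM against 1532, 1992 and 1797 CPM, and Mt-nd4, of complex I, fell by 0.73 on the log2 scale. The complex I genes Mt-nd1 and Mt-nd2 had log2 fold changes of −0.56 and −0.48, under the fold change asked for. IDPN-7wk replicate 1 was the lowest rat in every gene named here. Calls ended for Mt-co1 without Control replicate 2 or 3 or IDPN-7wk replicate 3 (adjusted p up to 0.0800) and Mt-atp6 without Control replicate 2 or IDPN-7wk replicate 1 (log2 fold change −0.55 and −0.51), and the count of 7 became 4 without Control replicate 2, with 6 without Control replicate 3.

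Nuclear genes of the respiratory chain gave no call. Of 36, 4, 9, 15 and 18 genes of complexes I to V, edgeR and DESeq2 each called 0. Over all genes edgeR called 5.13%, so counts of 0 in the shorter lists say little about them. At an unadjusted p under 0.05 there were 4, 0, 0, 1 and 0, against 2992 of all 15517 genes. Medians were −0.03, 0.03, −0.04, 0.02 and −0.01, close to the 0.01 over all genes. Ndufs4, an accessory subunit of complex I, measured 176, 188 and 199 CPM in the controls and 148, 148 and 158 CPM after IDPN (log2 fold change −0.31, adjusted p 0.0662). It was apart, as were 34.3% of all genes, but not called. Of 82 ribosomal protein genes, edgeR called 0 and DESeq2 1, with 8 at an unadjusted p under 0.05 and a median of 0.11.

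Large losses in absolute level included the following 3 transcripts. AY172581.24, annotated as mitochondrial ribosomal RNA, measured 46844, 44945 and 60058 CPM in the controls and 25839, 31506 and 30200.0 CPM after IDPN (log2 fold change −0.79). Ptgds, a secreted prostaglandin synthase and lipid carrier, measured 18220.0, 12929 and 19276 CPM against 7523, 9851 and 8019.7 CPM (log2 fold change −0.99, adjusted p 0.00403). Apoe, a lipid carrier, measured 23069, 22189 and 27669 CPM against 13838, 17377 and 17016 CPM (log2 fold change −0.60). All 3 fell without overlap, and Ptgds and AY172581.24 were also lower than after 3 weeks in the direct test (adjusted p 0.0498 and 0.0296). Calls ended for AY172581.24 without IDPN-7wk replicate 1 (adjusted p 0.0535) and Apoe without Control replicate 3 or IDPN-7wk replicate 1 (log2 fold change −0.49 and −0.50). Direct calls ended for Ptgds without Control replicate 1 or 3, IDPN-3wk replicate 1 or 2 or IDPN-7wk replicate 1 or 3 (adjusted p up to 0.208) and AY172581.24 without Control replicate 1, IDPN-3wk replicate 1 or 2 or any 1 IDPN-7wk replicate (adjusted p up to 0.131).

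Between the exposures, 75 genes differed in the direct test of IDPN-7wk against IDPN-3wk, 54 higher and 21 lower after 7 weeks. Their number was 445 without IDPN-3wk replicate 3, which left only the 2 IDPN-3wk libraries with fewer detected genes, 39 without IDPN-7wk replicate 3, 42 without IDPN-7wk replicate 1 and 52 to 69 when any 1 of the others was left out. Among lists of HC genes, the type I markers held only Spp1, while mechanotransduction, tip link, motor, actin core, synapse, transcription factor and axoneme lists held 0. The direct test called 0.483% of all genes, so counts this low were to be expected in lists of any genes, and nothing about HCs is read from them. For Myo15a the IDPN-3wk rats measured 32.4, 29.0 and 22.3 CPM and the direct log2 difference was 0.20, for Otof 390.2, 377 and 293 CPM and −0.01, and for Hydin 24.3, 28.7 and 20.6 CPM and −0.02. The direct test called none of these 3 genes (adjusted p 0.679, 0.983 and 0.978), which are examples and do not stand for their lists. Median direct log2 differences were −0.39 for type I markers, −0.20 for mechanotransduction, 0.23 for tip link and 0.20 for motor genes. They were −0.04 for actin core, −0.02 for synapse, −0.06 for transcription factor and −0.06 for axoneme genes, against 0.01 over all genes. Interferon targets, antigen presentation genes, Il17rb and Cfb made up most of the named genes that were higher after the longer exposure. Genes were named partly from these lists and from interferon genes that the paper names for this comparison, so that share partly follows from the choice. Of all 54 genes higher, 21 were in the antiviral effector list and 8 in the class I and II list, with 0 lower in either. These lists were also chosen with earlier results known.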

How the data were processed

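RNA of 9 libraries was analysed, 6 of them in the comparison. The deposited values are expected counts per gene, which the authors computed with STAR 2.5.3a and RSEM 1.3.0 from the rat genome Rnor6.0 and gave as whole numbers, so rounding changed none. The strand of counting was not stated. Genes were kept by filterByExpr (15517 of 32883) and normalized by TMM. They were tested with the robust quasi-likelihood test of edgeR 4.0.16 (limma 3.58.1, R 4.3.3) in 1 fit of 9 libraries, each group having its own mean. The Benjamini-Hochberg adjustment covered all genes tested. All adjusted p-values come from this test. Counts were read by Ensembl identifier, since 4258 entries share a symbol with another. Calls were tested on simulated data, whose outcome is not given here, and nothing in the text rests on it.

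Genes named were, in each direction, the 10 DEGs with the largest fold change without overlap and at least 5 CPM, the 5 with the largest difference in CPM, up to 4 DEGs and 2 defining genes of each list, and genes the paper names for this comparison. Some of these are not reported here. Members and lists were chosen with earlier results of these data known.

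Alternatives were DESeq2 1.42.0, RLE size factors, no count filter, a minimum of 10 counts per library, a fit of the 6 libraries alone, a stricter fold change (2) or none, and single libraries left out. Chosen after seeing the data were fits without mitochondrial genes and without the 3 libraries with fewer detected genes, and direct tests without each of 9 libraries.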

Additional observations from a re-analysis of the deposited data

Results flagged for a closer look

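Of the genes named, 34 had an effect against control that differed between 7 and 3 weeks of IDPN, by the direct edgeR test of IDPN-7wk against IDPN-3wk with adjustment over all genes tested. Of these, 17 were called whichever 1 of the 9 libraries was left out, and the number kept was lowest without IDPN-7wk replicate 3 (17) or 1 (19). Each is given with the log2 difference of IDPN-7wk minus IDPN-3wk and its adjusted p. The 27 higher after 7 weeks included the interferon genes Ifi27 (1.56, 0.000396), Rtp4 (2.20, 0.000696), Lgals3bp (2.79, 0.000696), Stat2 (1.43, 0.00179), Ifitm3 (1.28, 0.00374), Usp18 (3.02, 0.00888), Isg15 (3.13, 0.00888), Ifi27l2b (5.17, 0.00937), Oas1a (2.33, 0.00937), Eif2ak2 (0.99, 0.0103), Igtp (1.09, 0.0180) and Irf7 (2.28, 0.0445). Those of antigen presentation were RT1-A2 (1.41, 0.000396), RT1-CE7 (1.09, 0.000396), B2m (1.10, 0.000396), RT1-CE10 (1.32, 0.00374), Tapbp (0.76, 0.0170), Psmb8 (1.27, 0.0281) and Tap1 (0.88, 0.0445). Also higher were Il17rb (2.85, 0.000696), Cfb (1.06, 0.000696), Lcn2 (1.17, 0.0118), Ctgf (1.24, 0.0434), Nupr1 (1.72, 0.0434) and C1r (0.80, 0.0445). At the limit of detection, Clca4l (8.71, 0.0170) had 1 count in the IDPN-3wk rats, and Oas2 (10.74, 0.0480) had 0, so both log2 differences are fitted values and no bound. The log2 difference became 6.05 for Ifi27l2b without IDPN-3wk replicate 1 and 10.76 for Clca4l without IDPN-3wk replicate 3.

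The 7 lower after 7 weeks were Spp1 (−1.00, 0.00326), Klk1b3 (−5.27, 0.0103), Mt-co3 (−0.73, 0.0118), Pcdhb19 (−2.43, 0.0213), AY172581.24 (−0.93, 0.0296), Gjb6 (−0.69, 0.0426) and Ptgds (−0.82, 0.0498). Without IDPN-7wk replicate 3 the calls of Klk1b3, Eif2ak2, Lcn2, Clca4l, Tapbp, Igtp, Pcdhb19, Psmb8, AY172581.24, Gjb6, Ctgf, Nupr1, Tap1, C1r, Irf7, Oas2 and Ptgds ended. All of these but Lcn2 and Clca4l also ended without IDPN-7wk replicate 1, and Clca4l, Tapbp, Pcdhb19, Psmb8, AY172581.24, Gjb6, Nupr1, Tap1, C1r, Irf7 and Oas2 without replicate 2. Of the same genes, Pcdhb19, Psmb8, AY172581.24, Gjb6, Ctgf, Nupr1, Tap1, C1r, Irf7, Oas2 and Ptgds ended without Control replicate 1, Pcdhb19, Psmb8, Tap1, C1r, Irf7 and Oas2 without Control replicate 2 and Ctgf, Nupr1, Tap1, C1r and Ptgds without Control replicate 3. Those ended without IDPN-3wk replicate 1 were Igtp, Pcdhb19, Psmb8, AY172581.24, Gjb6, Ctgf, Tap1, C1r, Oas2 and Ptgds, and without IDPN-3wk replicate 2 Lcn2, Psmb8, AY172581.24, Gjb6, Ctgf, Nupr1, Irf7, Oas2 and Ptgds. Adjusted p in these fits was up to 0.214. RT1, Oas1a, Ifi27l2b, Klk1b3 and Pcdhb19 share reads with close copies and are uncertain.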

How the results depend on the processing

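The comparison gave 796 DEGs, 485 downregulated and 311 upregulated, and 34 named genes in the direct test. DESeq2 gave 1317, 803, 514 and 74, and a fit of only the 6 libraries gave 1249, 774 and 475. A fold change above 2 gave 480, 284 and 196. Leaving out Control replicate 3 and IDPN-3wk replicates 1 and 2, which had fewer detected genes, was chosen after seeing the data and gave 1563, 889, 674 and 20, the direct calls resting on 1 IDPN-3wk library there. Leaving out 1 of the 6 libraries gave 432 to 600 DEGs, 266 to 345 downregulated, 166 to 255 upregulated and 17 to 31 direct calls, and leaving out 1 IDPN-3wk library gave 27 to 45. The causes of the lower and higher counts were not tested. RLE size factors, no filter, 10 counts in every library, no fold change threshold and no mitochondrial genes gave 797, 819, 908, 945 and 785 DEGs. Of the 796 DEGs, 795 were also called by DESeq2 and 795 in the 6-library fit, and none changed direction in any fit that tested it, with 32 not tested at 10 counts in every library and 9 without mitochondrial genes. Of 160 named DEGs, 106 lost their call under none of the alternatives that tested them, other than the fold change above 2, which ended 37 calls. Atf4, which was not called, had a log2 fold change of 0.09, which ran from −0.08 without IDPN-7wk replicate 1 and −0.01 without Control replicate 2 to 0.25 without Control replicate 3. Replicate numbers were assigned here and the labels state no pairs, so no paired analysis was made. Depth limits genes near 3 counts per library.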

Other observations

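Several further families of genes were examined after their values were seen, and are given as values. Some of their members, Krt15 among them, were also in lists above. Of 20 glutamate receptor genes, Gria2, Gria4, Grik2, Grm3 and Neto1 were downregulated (median −1.61). The receptor subunit Gria4 measured 123, 115 and 114 CPM in the controls and 20.1, 23.3 and 27.3 CPM after IDPN, and Gria2 measured 79.0, 82.0 and 83.8 CPM against 20.9, 33.1 and 34.8 CPM. Both were apart in all rats, whereas Grm3 had a log2 fold change of −2.38, and −1.60 without Control replicate 3. Its call ended without Control replicate 2 or 3 or any 1 IDPN-7wk replicate (adjusted p up to 0.154), and the count of 5 became 2 without Control replicate 2 or any 1 IDPN-7wk replicate and 3 without Control replicate 1. Of 11 sodium pump genes, 3 were downregulated, Atp1b1 and Atp1b3 among them (median −0.36). Atp1b1 measured 484, 488 and 481 CPM against 273, 293 and 288 CPM and Atp1b3 fell by 0.86 on the log2 scale. Of 22 genes of cholesterol synthesis, 20 were lower and 3 were downregulated, Msmo1 and Hsd17b7 among them (median −0.39). Calls ended for Hsd17b7 without IDPN-7wk replicate 1 (adjusted p 0.0526) and Msmo1 without Control replicate 3 or IDPN-7wk replicate 3 (log2 fold change −0.52 and −0.55).

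Of 33 genes of collagens, laminins and proteoglycans, 6 were upregulated and 10 downregulated (median −0.23). The count of 10 became 5 without Control replicate 2 or IDPN-7wk replicate 3 and 6 without Control replicate 1 or IDPN-7wk replicate 1. The cartilage proteoglycan Acan measured 28.6, 33.8 and 18.9 CPM in the controls and 3.61, 4.07 and 2.00 CPM after IDPN (log2 fold change −3.07), the calcification inhibitor Mgp measured 27.8, 19.3 and 26.6 CPM against 100.2, 132 and 82.6 CPM, and the crosslinking enzyme Lox rose by 1.79 on the log2 scale. All 3 were apart, and calls ended for Lama1 without Control replicate 1 or 2 or IDPN-7wk replicate 1 or 3 (adjusted p up to 0.108) and Ogn without Control replicate 2 or IDPN-7wk replicate 1 or 3 (adjusted p up to 0.0726).

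Of 30 genes of surface epithelium 13 were tested and 7 were upregulated (median 2.51), which became 3 without Control replicate 2 or any 1 IDPN-7wk replicate and 4 without Control replicate 1 or 3. The secreted inhibitor Wfdc18 had 0 counts in the controls and 516 after IDPN, at least 43.6-fold over a floor of 3 counts per library. Sftpd, a lectin of mucosal surfaces, had 3 counts against 476, a ratio of 121 (95% counting interval 41.1 to 588). Its fitted log2 fold change was 6.77, and 10.13 without Control replicate 2. Calls ended for Wfdc18 without any 1 of the 6 libraries (adjusted p up to 0.123) and Sftpd without any 1 of the 6 libraries (adjusted p up to 0.164). Of 20 muscle genes 9 were tested, with Myh3, Myh4 and Tnnt2 upregulated and Tnnc2 downregulated (median −0.07). The fast myosin Myh4 measured 16.4, 3.26 and 0.760 CPM against 157, 142 and 161 CPM (log2 fold change 4.48, 6.27 without Control replicate 1), and shares reads with other myosin genes. Tnnt2 rose by 2.42 and Tnnc2 fell by 2.05 on the log2 scale, both parts of troponin, and the call ended for Myh3 without any 1 of the 6 libraries (adjusted p up to 0.126).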
